A study of Rattus norvegicus with 12 samples.

Results

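The insulin-like growth factor (Igf) family was followed in rat laryngeal muscle 1 week after its motor nerve had been cut. The 10 genes described are the ligands Igf1 and Igf2, the receptors Igf1r and Igf2r, and the binding proteins Igfbp2, Igfbp3, Igfbp4, Igfbp5, Igfbp6 and Igfbp7. They were picked by gene symbol. Each of the 10 was measured by exactly 1 probe set with a single symbol, among 14329 named genes in all.

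Both ligands are small secreted proteins that act through Igf1r, a tyrosine kinase of the cell surface that signals through phosphatidylinositol 3-kinase, Akt and mTOR to raise protein synthesis. In muscle, Igf1 is known for fibre growth and repair and Igf2 for the differentiation of myoblasts, and macrophages and fibroblasts of injured muscle also make Igf1. Igf2r, the cation-independent mannose 6-phosphate receptor, takes up Igf2 for breakdown and carries lysosomal enzymes. The binding proteins hold the ligands outside cells and either shield them from the receptor or deliver them to it, and Igfbp7 binds them only weakly.

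The arrays were whole-transcript rat arrays of male F344 rats, whose age the labels do not give, with 3 arrays in each of 4 groups. The PCA injury and AC injury groups came from rats in which 1 cm of the recurrent laryngeal nerve on one side had been removed under ketamine and xylazine. The PCA control and AC control groups came from rats given the same anaesthesia and approach with the nerve left intact. PCA is the posterior cricoarytenoid muscle, which opens the vocal folds, and AC the laryngeal adductor complex, which closes them. Only 1 side was injured, and which side each specimen came from is not stated. The labels give 10 animals per surgery group and do not say which animal gave which array, or whether specimens were pooled. The p-values below thus rest on array-to-array spread alone, and that spread may be technical.

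All values are log2 units as deposited, and array medians lay between 7.11 and 7.17. Differences are given as log2 difference ± SE from 1 limma fit across all genes, with Benjamini-Hochberg adjusted p over all genes, and a gene is said to rise or fall where that p was under 0.05. The muscle fibre score, the mean log2 value of 10 fibre genes, was 11.68 to 12.53 in PCA injury against 12.64 to 12.81 in PCA control, and 11.99 to 12.26 in AC injury against 12.35 to 12.59 in AC control, without overlap in either muscle. In injured PCA 5 of 10 fibre, 7 of 7 adipocyte, 7 of 8 cartilage and 3 of 4 tendon genes fell, where 12.5% of all genes did, and in injured AC none of these passed in limma (1, 0, 1 and 2 had an unadjusted p under 0.05). Their part in the injury differences below was not tested. For counts at an unadjusted p, here and below, the share of all genes at that level was not computed. The specimens also differed in tissue from outside the muscles. The mean over 10 thyroid and parathyroid genes stood at 9.89 in PCA injury 2, 10.02 in PCA control 1 and 8.69 in AC injury 2, while the remaining 9 arrays ranged over 6.26 to 7.29. The squamous epithelium score, over 5 genes, was 10.48 to 11 in PCA injury, 7.50 to 10.08 in PCA control, 10.64 to 10.97 in AC injury and 10.87 to 11.32 in AC control. The members, the pathway genes and the macrophage and fibroblast genes were therefore also tested without the 3 arrays of highest thyroid and parathyroid score. Those 3 are called rich in thyroid transcripts below, and their parathyroid gene Pth was 13.29, 13.45 and 12.69. The thyroid gene Tg was also high in kept arrays, PCA control 3 (13.10) and PCA injury 1 (11.34). That refit was thus not free of thyroid transcripts. It left 2 arrays each in PCA injury, PCA control and AC injury, and 3 in AC control. In the PCA 16.3% of all genes then passed, against 25.8% with all arrays, and in the AC 0.0698% against 1.91%. The part of the smaller number of arrays in the lost calls was not tested. In the refit 1 of the 10 thyroid and parathyroid genes rose and 2 fell in the PCA, where 8.67% and 7.62% of all genes did. None of the 10 passed there in limma with all arrays. The squamous score was also entered as a covariate for the members. With it 394 of all 14329 genes passed in the PCA (3697 without it) and 133 in the AC (274). Between the controls 2 passed (1523), and over both muscles 2201 (3790). Calls were thus lost outside the members too. The score varied within groups mainly in PCA control (SD 1.30, against 0.16 to 0.27 in the other groups).

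**Figure D1:**
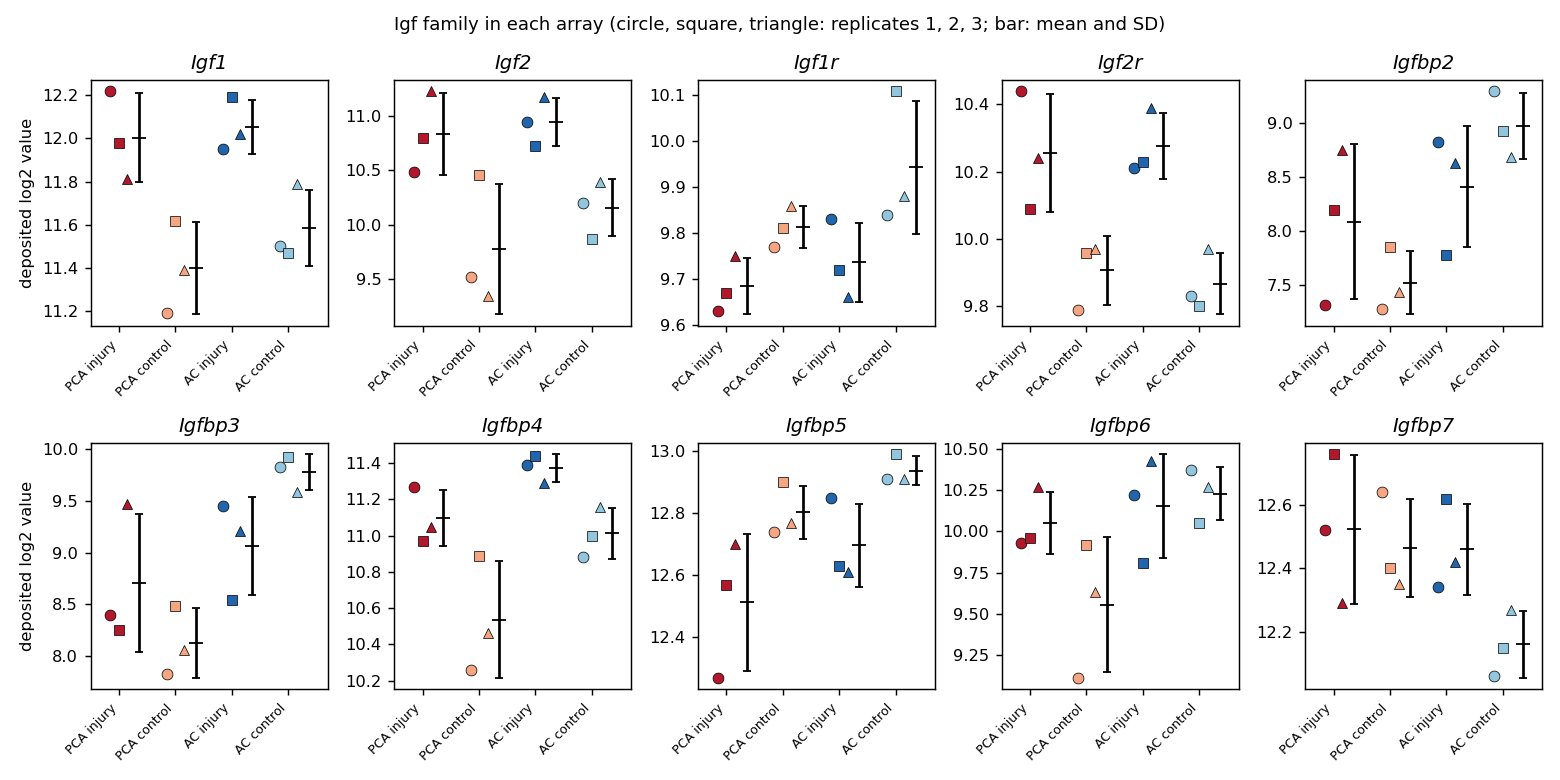
Deposited log2 value of each Igf family gene (vertical axis, a separate range per panel) in each of 12 arrays, by group, with the group mean and SD as bars (n = 3). Igf1, Igf2, Igf2r and Igfbp4 lay higher in all 3 injured arrays than in the 3 controls of the same muscle, and Igfbp2 and Igfbp3 lay higher in AC control than in PCA control.

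The first question was which members the injury shifted across both muscles, tested as the mean of the PCA and AC differences. Igf2, Igf1, Igfbp4 and Igf2r rose, and Igfbp5 fell. The rise was 0.93 ± 0.20 for Igf2, or 1.90-fold (adjusted p = 0.00557), 0.54 ± 0.10 for Igf1, or 1.45-fold (adjusted p = 0.0025), 0.46 ± 0.10 for Igfbp4 (adjusted p = 0.00748) and 0.38 ± 0.07 for Igf2r (adjusted p = 0.00277). Igfbp5 stood at -0.26 ± 0.08 (adjusted p = 0.0266). Thus 4 of 10 members rose and 1 fell, where 26.4% of all genes passed (13.4% rose and 13.1% fell). The median of the 10 differences was 0.20, and that of all genes was 0.00. Igf1r (-0.17 ± 0.06, adjusted p = 0.0588), Igfbp6 (0.21 ± 0.15), Igfbp7 (0.18 ± 0.09), Igfbp2 (0.00 ± 0.25) and Igfbp3 (-0.07 ± 0.22) did not pass. The 4 rises also passed without the 3 arrays rich in thyroid transcripts (0.93 for Igf2, 0.45 for Igf1, 0.41 for Igfbp4 and 0.40 for Igf2r) and with any single array left out. With the squamous score as covariate, Igf2 (0.48, adjusted p = 0.0606) and Igfbp4 (0.33, adjusted p = 0.105) no longer passed, while Igf1 (0.49, adjusted p = 0.033) and Igf2r (0.39, adjusted p = 0.0223) did. The Igfbp5 call was lost with arrays scaled to a common median and interquartile range (-0.18, adjusted p = 0.13), without those 3 arrays (-0.28, adjusted p = 0.0895) and without PCA control 2, AC control 2, AC injury 2 or AC injury 3 (-0.25 to -0.24, adjusted p = 0.0582 to 0.0632). Igf1r passed without AC control 1 or AC injury 1 (-0.19 each), with array weights (-0.17, adjusted p = 0.0452) and with genes of a mean below 6 left out (adjusted p = 0.0477).

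Within each muscle the same comparison had less precision. In the PCA, 4 of 10 members rose and none fell, where 25.8% of all genes passed (13.3% rose and 12.5% fell). In the AC, none of the 10 passed in limma, where 1.91% of all genes did (1.15% higher and 0.761% lower). An unadjusted p under 0.05 was found for 7 of the 10. The share of all genes at that unadjusted level was not computed, and the 1.91% is no measure of it. With each muscle fitted alone, Igf1 was the 1 member that passed in the PCA, where 2257 of all 14329 genes did. Igf2 (adjusted p = 0.0413) and Igf2r (adjusted p = 0.0446) then passed in the AC, where 619 of all genes did. Injured and control values did not overlap for 7 of 10 members in the PCA, against 37% of all genes, with 5 members higher (18.2% of all genes) and 2 lower (18.8%). In the AC they did not overlap for 8 of 10, against 28.4% of all genes, with 5 higher (15.3%) and 3 lower (13.1%). The interaction, the PCA difference minus the AC difference, passed for none of the 10 members in limma, where 0.154% of all genes did (0.126% higher and 0.0279% lower); 2 members, Igfbp2 and Igfbp3, had an unadjusted p under 0.05.

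**Figure D2:**
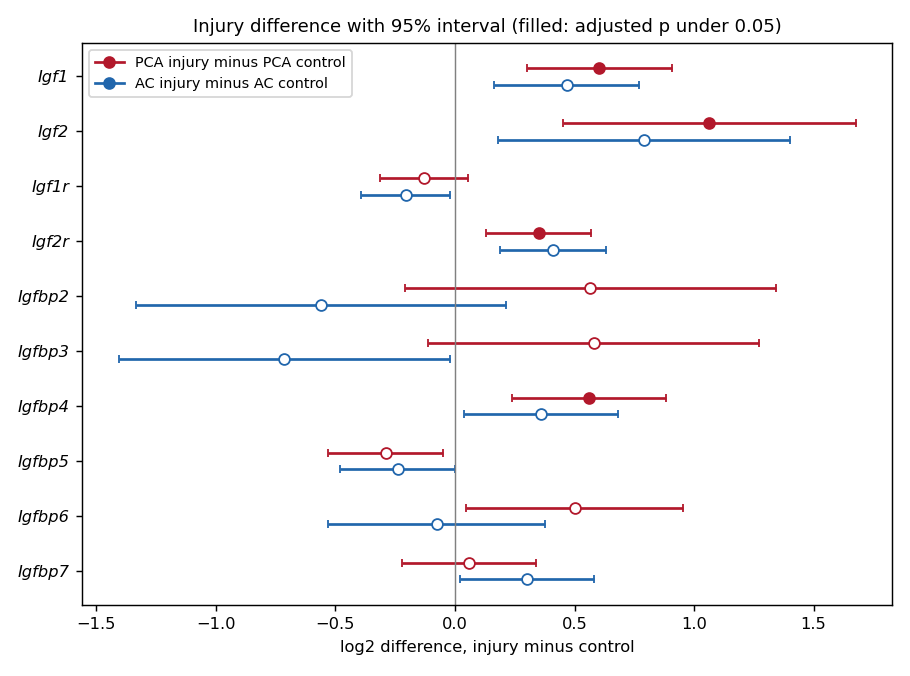
Log2 difference between injury and control (horizontal axis) for each member, in the PCA (red) and in the AC (blue), with its 95% interval from limma, filled where the adjusted p was under 0.05. In the PCA the filled points are Igf1, Igf2, Igf2r and Igfbp4, and for Igfbp2 and Igfbp3 the points of the muscles lie on opposite sides of 0.

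Igf2, the ligand best known from fetal growth and from differentiating myoblasts, showed the largest injury difference of the family in both muscles. Its level was 10.48, 10.80 and 11.23 in PCA injury, against 9.52, 10.46 and 9.34 in PCA control. All injured arrays lay above all controls, though PCA control 2 nearly reached the lowest injured array. The PCA difference was 1.06 ± 0.28, or 2.09-fold (adjusted p = 0.0167). In the AC, Igf2 was 10.94, 10.72 and 11.17 after injury, against 10.20, 9.87 and 10.39 in controls. Those groups did not overlap either, and the AC difference of 0.79 ± 0.28 had an adjusted p of 0.146. The PCA difference exceeded the AC difference by 0.27, with a 95% interval from -0.59 to 1.14. The PCA call was lost without PCA control 1, PCA control 3 or PCA injury 3 (0.94, 0.85 and 0.87, adjusted p = 0.06, 0.0721 and 0.0565), and without the 3 arrays rich in thyroid transcripts (0.95, adjusted p = 0.112). Once the squamous score entered the fit, the PCA difference was 0.04 ± 0.28, and the AC difference 0.91 ± 0.17 (adjusted p = 0.0418). PCA control 2, the control with the most Igf2, also had the highest squamous score of the PCA controls (10.08, against 8.48 and 7.50); the part of epithelium in the PCA difference was not tested further.

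Igf1, which binds Igf1r and drives fibre growth, was 12.22, 11.98 and 11.81 in PCA injury and 11.19, 11.62 and 11.39 in PCA control. The groups did not overlap, and Igf1 rose in the PCA by 0.60 ± 0.14, or 1.52-fold (adjusted p = 0.009). In the AC it was 11.95, 12.19 and 12.02 after injury and 11.50, 11.47 and 11.79 in controls, again without overlap. The AC difference was 0.47 ± 0.14 (adjusted p = 0.0975). The PCA minus AC difference of Igf1 was 0.14, with a 95% interval from -0.29 to 0.57. The PCA call held with any single array left out, but not without the 3 arrays rich in thyroid transcripts (0.51, adjusted p = 0.0688) or with the squamous covariate (0.49, adjusted p = 0.284). Between the injured muscles the PCA minus AC difference of Igf1 was -0.05 (95% interval -0.35 to 0.25), and between the controls -0.19 (95% interval -0.49 to 0.12).

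Markers of macrophages and fibroblasts were measured beside the ligands. The macrophage score over 10 genes was 10.29 to 10.69 in PCA injury against 8.35 to 9.16 in PCA control, and 10.06 to 10.51 in AC injury against 9.36 to 9.68 in AC control. Of these 10 genes 9 rose in the PCA, where 13.3% of all genes did, and 2 in the AC, where 1.15% did, and the macrophage protein Cd68 rose by 2.76 ± 0.27 in the PCA and by 1.28 ± 0.27 in the AC. The fibroblast score over 9 genes was 11.34 to 11.63 in PCA injury against 10.66 to 11.06 in PCA control, and 11.33 to 11.59 in AC injury against 10.94 to 11.32 in AC control. Of those 9 genes 6 rose in the PCA and 1 in the AC, beside the same shares of all genes. Without the 3 arrays rich in thyroid transcripts 9 macrophage genes and 1 fibroblast gene rose in the PCA (8.67% of all genes), and none of either list passed in limma in the AC (0.0698% of all genes), where 9 and 7 had an unadjusted p under 0.05. Over the 12 arrays the correlation of Igf1 with the fibroblast score was r = 0.98 and with the macrophage score r = 0.94, both of which include the shift between groups. With each array taken as its deviation from its group mean, the r values were 0.93 and 0.82. For Igf2 the r over the 12 arrays was 0.80 with the fibroblast score and 0.84 with the macrophage score. Between deviations these were 0.26 and 0.40, against 0.84 with the squamous score and -0.80 with the cartilage score. The part of macrophages and fibroblasts in the Igf1 and Igf2 differences was not tested. In bulk tissue more cells of a type cannot be told apart from more RNA per cell.

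**Figure D3:**
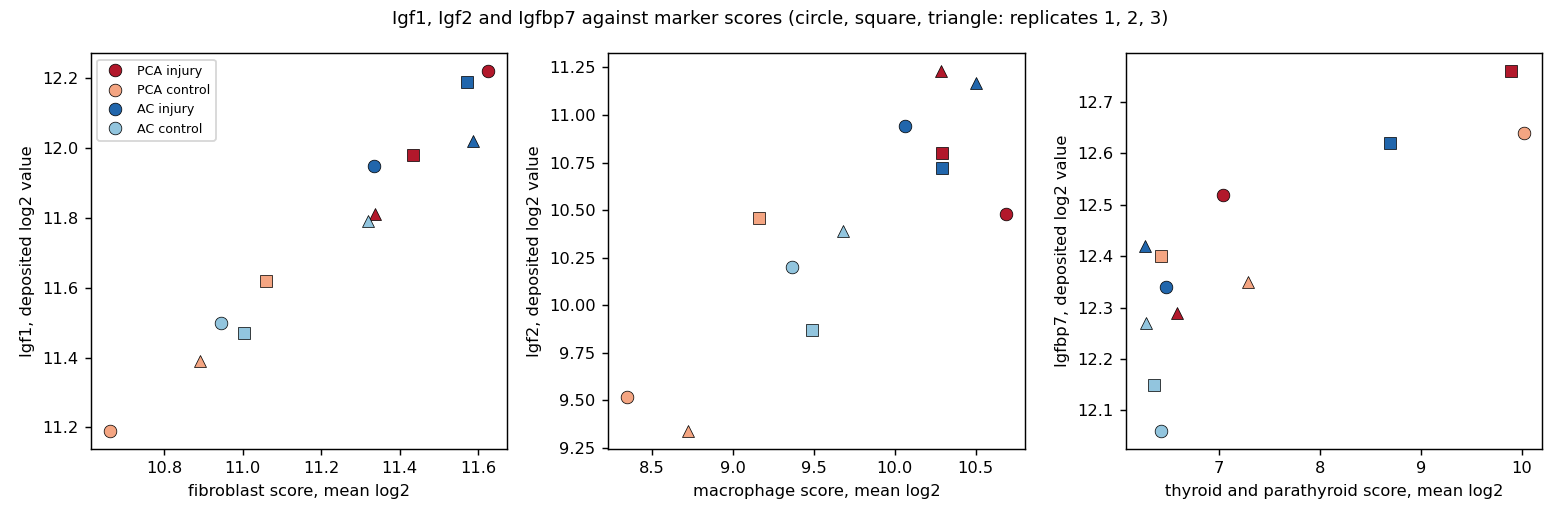
Level of Igf1 against the fibroblast score, of Igf2 against the macrophage score and of Igfbp7 against the thyroid and parathyroid score, each on the log2 scale, with 1 point per array coloured by group. Igf1 and Igf2 lie highest in injured arrays, and the 3 highest Igfbp7 values are those of PCA injury 2, PCA control 1 and AC injury 2.

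The receptors went opposite ways in sign. Igf2r, which clears Igf2, was 10.44, 10.09 and 10.24 in PCA injury and 9.79, 9.96 and 9.97 in PCA control. In the AC it was 10.21, 10.23 and 10.39 after injury, against 9.83, 9.80 and 9.97 in controls. Neither pair of groups overlapped. Igf2r rose in the PCA by 0.35 ± 0.10 (adjusted p = 0.0254), while the AC difference of 0.41 ± 0.10 had an adjusted p of 0.0621. The PCA call was lost without PCA control 1 (0.29, adjusted p = 0.0891), PCA injury 1 (0.26, adjusted p = 0.0958) or the 3 arrays rich in thyroid transcripts (0.38, adjusted p = 0.0544), with arrays weighted by quality (0.28, adjusted p = 0.0653) and with the squamous covariate (0.38, adjusted p = 0.256). The AC difference passed without PCA injury 1 (adjusted p = 0.033) and with array weights (adjusted p = 0.0415).

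Igf1r, the signalling receptor, was 9.63, 9.67 and 9.75 in PCA injury and 9.77, 9.81 and 9.86 in PCA control. In AC injury it was 9.83, 9.72 and 9.66, against 9.84, 10.11 and 9.88 in AC control. Each injured group thus lay just below its control, by 0.13 ± 0.08 in the PCA (adjusted p = 0.3) and 0.21 ± 0.08 in the AC (adjusted p = 0.2), and neither difference passed. The 95% intervals ran from -0.32 to 0.06 and from -0.39 to -0.02.

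Among the binding proteins, Igfbp4 followed the ligands. Igfbp4 is known to hold Igf1 away from its receptor until the protease Pappa cuts it. It was 11.27, 10.97 and 11.05 in PCA injury and 10.26, 10.89 and 10.46 in PCA control. In AC injury it was 11.39, 11.44 and 11.29, against 10.88, 11 and 11.16 in AC control. Neither pair overlapped, and Igfbp4 rose in the PCA by 0.56 ± 0.15, or 1.47-fold (adjusted p = 0.0164). The AC difference was 0.36 ± 0.15 (adjusted p = 0.198). The PCA call was lost without PCA control 1, PCA control 3 or PCA injury 1 (0.42, 0.52 and 0.47, adjusted p = 0.0597, 0.0606 and 0.0654) and without the 3 arrays rich in thyroid transcripts (0.49, adjusted p = 0.0724). With the squamous covariate it was 0.27 (adjusted p = 0.585).

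Igfbp5, a binding protein of muscle and of the matrix that is made as myoblasts differentiate, went the other way. It was 12.27, 12.57 and 12.70 in PCA injury, below the 12.74, 12.90 and 12.77 of PCA control. In AC injury it was 12.85, 12.63 and 12.61, below the 12.91, 12.99 and 12.91 of AC control. The differences were -0.29 ± 0.11 in the PCA (adjusted p = 0.0763) and -0.24 ± 0.11 in the AC (adjusted p = 0.248), so that neither passed alone. The PCA difference passed without PCA injury 3 (-0.38, adjusted p = 0.0277) and after a further quantile normalisation (-0.34, adjusted p = 0.0397). The lowest Igfbp5 value of the series was in PCA injury 1, which also had the lowest muscle fibre score (11.68).

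Igfbp2 and Igfbp3 differed between the uninjured muscles. Igfbp3, the main carrier of the ligands in blood, was 7.83, 8.49 and 8.06 in PCA control, against 9.83, 9.92 and 9.59 in AC control. Igfbp2, which carries an integrin-binding motif, was 7.28, 7.85 and 7.44 in PCA control, against 9.30, 8.93 and 8.69 in AC control. Neither gene had overlapping groups, and the PCA minus AC difference in controls was -1.65 ± 0.32 for Igfbp3 (3.15-fold, adjusted p = 0.00816) and -1.45 ± 0.35 for Igfbp2 (2.73-fold, adjusted p = 0.0247). They were the 2 of 10 members that were lower in PCA control than in AC control, where 10.6% of all genes passed (7.39% lower); no member was higher, where 3.24% of all genes were. In 5 of 10 members these groups did not overlap, against 33.7% of all genes, with 4 lower (15.9%) and 1 higher (17.7%).

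The Igfbp3 call held with any single array left out (adjusted p up to 0.0363) and without the 3 arrays rich in thyroid transcripts (-1.50, adjusted p = 0.0247). The Igfbp2 call was lost without PCA control 1, PCA control 3, AC control 1 or AC control 2 (-1.33, -1.41, -1.29 and -1.47, adjusted p = 0.0577 to 0.0976), and without those 3 arrays (-1.33, adjusted p = 0.0778). Beside this stood the squamous score, at 7.50 to 10.08 in PCA control and 10.87 to 11.32 in AC control. With it as a covariate the differences were -0.998 ± 0.545 for Igfbp3 and -0.63 ± 0.59 for Igfbp2. Neither passed (adjusted p = 0.637 and 0.824). Only 2 of all 14329 genes passed between the controls in that fit, against 1523 without the covariate. The adipocyte score over 7 genes was 8.68 to 9.20 in PCA control and 7.24 to 7.35 in AC control, and the cartilage score over 8 genes 9.80 to 10.54 and 8.59 to 9.35. Between deviations from the group means, r with the squamous score was 0.42 for Igfbp3 and 0.47 for Igfbp2. It was 0.80 and 0.89 with the muscle fibre score, -0.62 and -0.71 with the cartilage score and -0.48 and -0.18 with the adipocyte score. With an endothelium score it was -0.80 and -0.58. The part of adipocytes, cartilage, muscle fibres and endothelium in the Igfbp2 and Igfbp3 differences was not tested.

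**Figure D4:**
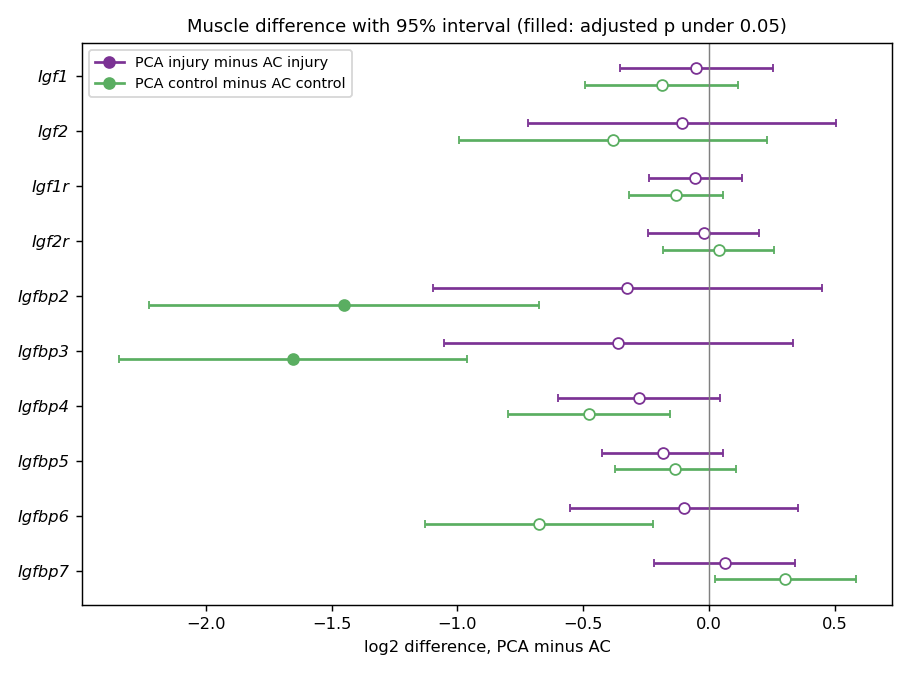
Log2 difference PCA minus AC (horizontal axis) for each member, between the injured groups (purple) and between the controls (green), with its 95% interval from limma, filled where the adjusted p was under 0.05. The 2 filled points are Igfbp2 and Igfbp3 in controls, and no member passed between the injured groups.

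After injury this muscle difference was smaller. Igfbp3 was 8.40, 8.25 and 9.47 in PCA injury and 9.45, 8.54 and 9.21 in AC injury, groups that overlapped. Igfbp2 was 7.32, 8.20 and 8.75 in PCA injury and 8.83, 7.78 and 8.63 in AC injury, also with overlap. The PCA minus AC difference between injured groups was -0.36 ± 0.32 for Igfbp3 and -0.32 ± 0.35 for Igfbp2, and no member passed, as no gene did (0%); 0 of the 10 members had an unadjusted p under 0.05 in limma. Igfbp4 alone had injured groups that did not overlap, lower in the PCA (4.28% of all genes lower, 2.21% higher, 6.48% in all). Relative to their own controls, Igfbp3 and Igfbp2 stood at 0.58 ± 0.32 and 0.57 ± 0.35 in injured PCA, and at -0.71 ± 0.32 and -0.56 ± 0.35 in injured AC. None of these 4 differences passed. The PCA minus AC difference of the injury effects was 1.29 ± 0.45 for Igfbp3 (95% interval 0.31 to 2.27, adjusted p = 0.184) and 1.13 ± 0.50 for Igfbp2 (95% interval 0.03 to 2.22, adjusted p = 0.305), so that neither passed over all genes. Without the 3 arrays rich in thyroid transcripts these interactions were 1.11 ± 0.42 and 0.63 ± 0.55.

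Igfbp6, which prefers Igf2 as its ligand, resembled Igfbp2 and Igfbp3 in part. It was 9.93, 9.96 and 10.27 in PCA injury, just above the 9.11, 9.92 and 9.63 of PCA control, and 10.22, 9.81 and 10.43 in AC injury, within reach of the 10.37, 10.05 and 10.27 of AC control. The injury difference was 0.50 ± 0.21 in the PCA (adjusted p = 0.1) and -0.08 ± 0.21 in the AC (adjusted p = 0.879). In controls the PCA minus AC difference was -0.68 ± 0.21 for Igfbp6 (adjusted p = 0.0604) and -0.48 ± 0.15 for Igfbp4 (adjusted p = 0.0617). Without PCA control 2 the PCA injury difference of Igfbp6 passed (0.68, adjusted p = 0.0366), as did both control differences (-0.86 for Igfbp6, adjusted p = 0.0272, and -0.65 for Igfbp4, adjusted p = 0.00731). That of Igfbp6 also passed without AC injury 2 (-0.68, adjusted p = 0.0481), and with array weights both did (-0.64 for Igfbp6, adjusted p = 0.0229, and -0.53 for Igfbp4, adjusted p = 0.0144). Without the 3 arrays rich in thyroid transcripts the AC injury difference of Igfbp6 changed sign (0.10).

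Igfbp2 and Igfbp3 varied together from array to array, with r = 0.93 over the 12 arrays and 0.82 between deviations from the group means. For Igfbp6 the r over the arrays was 0.82 with Igfbp2 and 0.81 with Igfbp3, and for Igf1 with Igfbp4 it was 0.88 (0.83 between deviations). These r values describe arrays that share groups and tissue make-up, and carry no test. The r of Igf1 over the arrays was 0.02 with Igfbp2 and 0.06 with Igfbp3, and -0.53 and -0.36 between deviations. Over the arrays other pairs were as close as Igfbp6 with Igfbp2, such as Igf1 with Igf2r (0.88) and Igf1r with Igfbp5 (0.83). Igfbp3 varied opposite to Igfbp7, with r = -0.81 over the arrays and -0.86 between deviations. The 150 bases just before the annotated start are shown for the Igfbp2, Igfbp3 and Igfbp6 group and for the Igf1 and Igfbp4 pair, as examples of members that varied together, from the RefSeq promoter table of build GRCr8, in which all 10 members were found. The stretches are chr9:81864661-81864810 on the + strand for Igfbp2, chr14:86277945-86278094 on the - strand for Igfbp3, chr7:135154769-135154918 on the + strand for Igfbp6, chr7:24172382-24172531 on the + strand for Igf1 and chr10:84491321-84491470 on the + strand for Igfbp4. Capitals mark matches to TATAAA (the TATA box), GGGCGG (a GC box), CCAAT and CAGCTG (an E-box of the kind bound by myogenic factors), searched on both strands, none of which overlap here.
Igfbp2: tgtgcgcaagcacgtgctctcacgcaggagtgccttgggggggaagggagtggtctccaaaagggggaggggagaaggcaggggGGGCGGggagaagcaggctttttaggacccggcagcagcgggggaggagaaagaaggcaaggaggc
Igfbp3: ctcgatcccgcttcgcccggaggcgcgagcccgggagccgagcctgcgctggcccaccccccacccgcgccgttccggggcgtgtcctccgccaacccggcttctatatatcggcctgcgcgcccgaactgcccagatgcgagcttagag
Igfbp6: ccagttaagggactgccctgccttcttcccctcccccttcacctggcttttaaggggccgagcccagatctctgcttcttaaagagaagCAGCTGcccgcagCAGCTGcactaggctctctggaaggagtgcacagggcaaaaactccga
Igf1: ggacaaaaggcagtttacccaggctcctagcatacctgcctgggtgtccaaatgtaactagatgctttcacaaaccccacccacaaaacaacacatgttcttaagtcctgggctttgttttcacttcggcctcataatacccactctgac
Igfbp4: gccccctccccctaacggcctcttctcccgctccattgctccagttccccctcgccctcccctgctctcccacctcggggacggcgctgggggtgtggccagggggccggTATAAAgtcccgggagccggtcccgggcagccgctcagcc
A GC box stood in Igfbp2, 66 to 61 bases before the start, a TATA box in Igfbp4, 40 to 35 bases before it, and the E-box letters at 2 places in Igfbp6, 61 to 56 and 48 to 43 bases before it. No motif of the 4 was present in more than 1 of the 5 stretches, and Igf1 and Igfbp3 had none. Among the 33469 promoters of the table, 8% held TATAAA, 26% GGGCGG, 23.5% CCAAT and 7.6% CAGCTG in the same window. The G and C content was 72.7% for Igfbp3, 65.3% for Igfbp2, 58% for Igfbp6, 73.3% for Igfbp4 and 47.3% for Igf1, against a median of 52.7% over the table. Igfbp2 and Igfbp5 are neighbouring genes on chromosome 9, and Igfbp3 and Igfbp1 on chromosome 14. The PCA minus AC difference in controls was -0.13 ± 0.11 for Igfbp5, against -1.45 ± 0.35 for its neighbour Igfbp2, while between deviations from the group means the r of Igfbp2 with Igfbp5 was 0.81. Igfbp1 lay among the low values of the arrays, at 5.92, 5.91 and 6.16 in PCA control and 5.72, 5.87 and 6.04 in AC control. Its PCA minus AC difference in controls was 0.12 ± 0.12.

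**Figure D5:**
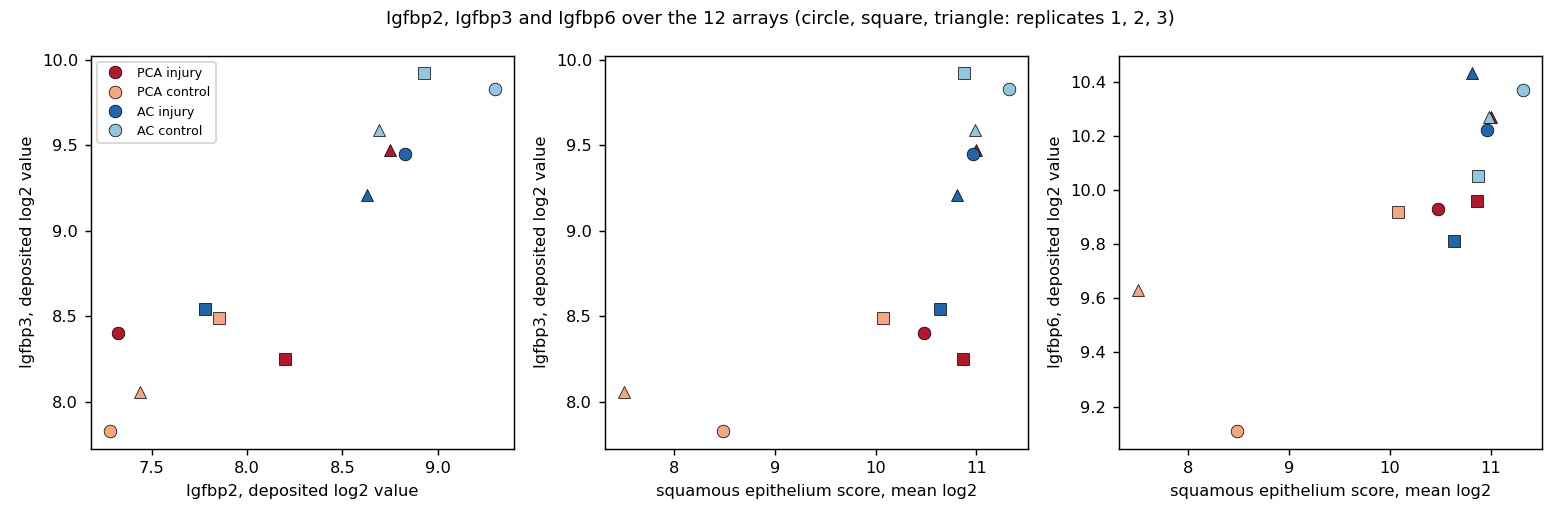
Level of Igfbp3 against Igfbp2, and of Igfbp3 and Igfbp6 against the squamous epithelium score (all log2), with 1 point per array coloured by group. PCA control 1 and 3 have the lowest epithelium scores (8.48 and 7.50) and the lowest Igfbp3 and Igfbp6 values, while PCA injury 2 combines a score of 10.87 with an Igfbp3 value of 8.25.

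Igfbp7, a secreted protein of vessel walls, had its highest levels in the 3 arrays with the highest thyroid and parathyroid scores. It was 12.52, 12.76 and 12.29 in PCA injury and 12.64, 12.40 and 12.35 in PCA control, groups that overlapped. It was 12.34, 12.62 and 12.42 in AC injury, above the 12.06, 12.15 and 12.27 of AC control. The 3 highest of its 12 values were those of PCA injury 2, PCA control 1 and AC injury 2, the arrays with the highest thyroid and parathyroid scores. Its injury difference was 0.06 ± 0.13 in the PCA (adjusted p = 0.785) and 0.30 ± 0.13 in the AC (adjusted p = 0.216), and 0.03 and 0.22 without those 3 arrays. The endothelium score over 4 genes was 9.96, 10.00 and 9.81 in these 3 arrays and 9.39 to 9.86 in the others. Its r with Igfbp7 was 0.95 over the 12 arrays and 0.91 between deviations from the group means. Between deviations from the group means, r with the thyroid and parathyroid score was 0.85 for Igfbp7, -0.81 for Igfbp6, -0.75 for Igfbp3 and -0.68 for Igf2r, and -0.55 to -0.19 for the other 6 members. PCA control 3, where the thyroid gene Tg was 13.10, had the lowest Igfbp7 value of the PCA controls (12.35). The part of the thyroid tissue in these levels was not tested.

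The rest of the Igf pathway was described from lists of signalling genes, of partners and proteases of the binding proteins, of the growth hormone axis and of imprinted growth genes. Of 19 measured genes of insulin and Igf signalling, 1 rose and 3 fell in injured PCA, where 13.3% of all genes rose and 12.5% fell, and none passed in limma in injured AC, where 1.91% of all genes did and 5 of the 19 had an unadjusted p under 0.05. Taken in both directions together, the count in the PCA is no larger a share than the 25.8% of all genes. The falls alone are a slightly larger share than that of all genes, and the rises a smaller one. Shc1, an adaptor of the receptor, rose in the PCA by 0.49 ± 0.11 (adjusted p = 0.00885). Irs1, the docking protein that passes the signal to phosphatidylinositol 3-kinase, fell by 0.46 ± 0.14, and Tsc1, a brake on mTOR, and Foxo1, a transcription factor switched off by Akt, each fell by 0.24 ± 0.07 (adjusted p = 0.0255 to 0.0382). Over both muscles Grb10, an adaptor that restrains the receptor, also rose (0.61 ± 0.13, adjusted p = 0.00654), and Foxo4 fell (-0.50 ± 0.13, adjusted p = 0.0182), giving 2 rises and 4 falls with Shc1, Irs1, Tsc1 and Foxo1. Without the 3 arrays rich in thyroid transcripts none of the 4 PCA calls was kept in limma (Shc1 0.51, Irs1 -0.46, Tsc1 -0.27 and Foxo1 -0.26, adjusted p = 0.0583 to 0.143), and over both muscles Shc1, Grb10 and Tsc1 passed while Irs1, Foxo1 and Foxo4 did not (adjusted p = 0.0708 to 0.125). The insulin receptor Insr stood at -0.01 ± 0.15 in the PCA and -0.11 ± 0.15 in the AC. The median difference of the 19 genes was -0.12 in the PCA and -0.07 in the AC, against -0.03 and 0.02 over all genes.

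Among 8 measured partners and proteases, Htra1, a secreted protease known to cut binding proteins, rose in the PCA by 0.80 ± 0.13 (adjusted p = 0.0018), and Stc2, an inhibitor of the protease Pappa, fell by 0.47 ± 0.12 (adjusted p = 0.0157); of all genes 13.3% rose and 12.5% fell. Htra1 passed without the 3 arrays rich in thyroid transcripts (0.71, adjusted p = 0.0274) and Stc2 did not (-0.40, adjusted p = 0.112). Htra1 was 10.23, 10.17 and 10.15 in PCA injury against 9.20, 9.53 and 9.42 in PCA control, and 10.07, 10.18 and 10.36 in AC injury against 9.59, 9.55 and 10.03 in AC control. Its groups did not overlap in either muscle, and the AC difference was 0.48 ± 0.13 (adjusted p = 0.0841). Pappa itself stood at 0.23 ± 0.34 in the PCA and 0.75 ± 0.34 in the AC, neither of which passed. Igfals, the partner of Igfbp3 in blood, was measured at 6.25 ± 0.19 in PCA injury, 6.46 ± 0.17 in PCA control, 6.30 ± 0.12 in AC injury and 6.31 ± 0.17 in AC control (SD, n = 3 each), and did not pass in either muscle.

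In the growth hormone axis, through which Igf1 is switched on in liver and other tissues, 1 of 6 genes rose and 3 fell in injured PCA, where 13.3% of all genes rose and 12.5% fell, while none passed in limma in injured AC, where 1.91% of all genes did and 2 of the 6 had an unadjusted p under 0.05. Socs2, a target and inhibitor of the growth hormone receptor, fell by 0.72 ± 0.11 (adjusted p = 0.00146). It was 8.89, 8.87 and 9.22 in PCA injury, below the 9.70, 9.74 and 9.71 of PCA control, and 9.26, 9.24 and 8.97 in AC injury, against 9.29, 9.57 and 9.40 in AC control. The receptor Ghr (-0.41 ± 0.12, adjusted p = 0.0277) and the transcription factor Stat5b (-0.37 ± 0.12, adjusted p = 0.0359) fell as well, while the kinase Jak2 rose (0.69 ± 0.15, adjusted p = 0.00693). Jak2 (0.86, adjusted p = 0.0116) and Socs2 (-0.67, adjusted p = 0.0224) passed without the 3 arrays rich in thyroid transcripts, and Ghr (-0.36, adjusted p = 0.16) and Stat5b (-0.46, adjusted p = 0.0797) did not. In the AC, Ghr stood at -0.02 ± 0.12, Stat5b at -0.23 ± 0.12, Socs2 at -0.26 ± 0.11 and Jak2 at 0.60 ± 0.15.

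Of 6 measured imprinted growth genes and binders of Igf2 mRNA, Mest alone passed in injured PCA, with a rise of 0.76 ± 0.24 (adjusted p = 0.0351), where 25.8% of all genes passed. In the AC its difference was 0.84 ± 0.24 (adjusted p = 0.0863), and over both muscles it rose by 0.80 ± 0.17 (adjusted p = 0.00498). The PCA difference of Mest did not pass without the 3 arrays rich in thyroid transcripts (0.92, adjusted p = 0.0699), while that over both muscles did (0.90, adjusted p = 0.0183). H19, the non-coding RNA imprinted together with Igf2, stood at -0.09 ± 0.14 in the PCA and 0.29 ± 0.14 in the AC, and did not pass. No gene of the 4 lists passed for the interaction or between the muscles in either state.

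Genes whose level followed a member most closely over the 12 arrays were taken by Pearson's r. For Igf1 they were Tspan4 (r = 0.99), Pcolce (0.98) and Ncf4 (0.98), and for Igf2 Mab21l1 (0.94), Siglec1 (0.93) and Grina (0.93). For Igf2r they were Lyl1 (0.99), Fcrl2 (0.96) and Emilin1 (0.96), and for Igfbp4 C1r (0.99), Serping1 (0.96) and Clec10a (0.96). Igfbp3 was most like F2rl1 (0.98), Padi1 (0.97) and Upk3bl1 (0.97), and Igfbp2 most like Nsdhl (0.98), Ccng2 (0.97) and Epn3 (0.97). Each r spans the differences between the 4 groups. It was picked as the highest among all genes other than the members and loci with LOC, RGD or AABR symbols. It thus describes these arrays only.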

How the data were processed

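Biotin-labelled RNA (100 ng of total RNA per specimen of 30 to 50 mg) was hybridised to 12 Affymetrix whole-transcript arrays, per the labels' protocols. The authors deposited 1 log2 value per probe set and array for 27342 probe sets; per the submitters' processing notes the tools were RMA and Partek, with no version. The log base is unstated and was taken as 2 from the range (2.57 to 14.04). RMA is known to include quantile normalisation, which makes each change relative to the rest of the array. The number of arrays limits the precision.

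The platform annotation gives 15103 probe sets a single symbol, 317 several and 11922 none; only those with 1 symbol were tested. Where a gene had several, the probe set with the highest mean over the 12 arrays was used, which left 14329 genes; symbols of all 10 members matched the GRCr8 gene table by gene identifier. Groups and replicate numbers came from the sample titles. A limma model (3.58.1, R 4.3.3) with 4 group means was fitted to all 12 arrays (8 residual and 3.14 prior degrees of freedom), with two-sided tests and the Benjamini-Hochberg method across all genes at 0.05; the fit was tested on simulated data. Scores are mean log2 values over marker lists. Members, lists and tests were chosen with earlier results of these data known. All members are named; from each pathway list the genes past the threshold (at most the 4 with the smallest adjusted p per comparison) and the first listed may be named, while Pappa and Igfbp1 were added after their values were seen. The 3 genes with the highest r are given for Igf1, Igf2, Igf2r, Igfbp4, Igfbp3 and Igfbp2. Those of Igf1r, Igfbp5, Igfbp6 and Igfbp7 are not shown. Of the pathway genes listed, 10 had no probe set with a single symbol in the annotation used and were not analysed here. Plots were drawn in Python 3.11.15 with matplotlib 3.10.9.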

Additional observations from a re-analysis of the deposited data

How the results depend on the processing

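With 3 arrays a group, several calls changed with single arrays left out, without the 3 arrays rich in thyroid transcripts or with the squamous covariate. In injured against control PCA 4 members were called (3697 of all 14329 genes). With the PCA groups fitted alone 1 was called (2257 of all genes), and at an adjusted p of 0.01 also 1 (1865). Without the 3 arrays rich in thyroid transcripts 0 were called (2335), and 0 when the squamous score entered the fit (394). With single arrays left out 1 to 5 were called (2466 to 3558). In the AC 0 members were called (274 of all genes). The count was 1 with array weights (703) and 2 with the AC groups fitted alone (619). It was 1 with the squamous score (133) and 0 to 1 with single arrays left out (13 to 663). In PCA against AC controls 2 members were called (1523 of all genes). The count was 4 with array weights (2626), 1 at an adjusted p of 0.01 (560) and 1 without the 3 arrays (812). It was 0 with the squamous score (2) and 1 to 4 with single arrays left out (714 to 1813). For the average over both muscles 5 members were called (3790 of all genes). The count was 3 with the squamous score (2201) and 4 to 6 with single arrays left out (3034 to 3920). The member counts for the interaction and for the injured muscles were 0 under every alternative run. Of all genes 0 to 406 were called for the interaction under these, and 0 between the injured muscles. The cause of these changes was not tested. Deviations of same-numbered arrays of different groups had r from -0.39 to 0.34, within the -0.62 to 0.66 of differently numbered ones. Such r values cannot decide whether same-numbered PCA and AC arrays share an animal, which the labels do not state. With the replicate number as a block in limma, 4 members were called in the PCA (3239 of all genes), 0 in the AC (59) and 5 in the average (3368). In PCA against AC controls 1 was then called (1162 of all genes), and Igfbp2 did not pass (-1.45, adjusted p = 0.0515).

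Signs turned only for differences that had not passed. With the squamous score these were Igfbp2 in the PCA (-0.16) and in the average (-0.32), the interactions of Igf2 (-0.87) and Igfbp4 (-0.13), and PCA against AC controls for Igf2 (0.78) and Igfbp5 (0.077). Without the 3 arrays they were Igfbp6 in the AC (0.10), Igfbp3 in the average (0.10) and PCA against AC in injured muscle for Igf1 (0.03) and Igf2r (0.04). With median centring Igfbp2 in the average was -7.42e-05. With single arrays left out, 27 further such turns were seen, 669 values kept sign and call, and 16 calls were lost and 8 gained. The values for injury in the PCA then ran from -0.058 to 0.18 for Igfbp7. The values for injury in the AC then ran from -0.21 to 0.095 for Igfbp6. The values for the interaction then ran from -0.0067 to 0.13 for Igf1r, from -0.15 to 0.023 for Igf2r, from -0.14 to 0.072 for Igfbp5. The values between injured muscles then ran from -0.16 to 0.047 for Igf1, from -0.30 to 0.072 for Igf2, from -0.11 to 0.063 for Igf2r, from -0.65 to 0.062 for Igfbp2, from -0.27 to 0.038 for Igfbp6, from -0.055 to 0.18 for Igfbp7. The values in the average then ran from -0.16 to 0.20 for Igfbp2, from -0.26 to 0.065 for Igfbp3. The fit to only the compared groups gives no separate value for the interaction or the average. The fits of pathway and marker genes without the 3 arrays were chosen after seeing the data. For the other alternatives values were taken for the members only, beside a count over all genes.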
